A study of Mus musculus with 4 samples.

Results

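Piezo1 and Piezo2 encode the 2 members of the PIEZO family of mechanically gated ion channels. They were found by symbol among the 32285 genes of a single-cell RNA-seq matrix, each in 1 feature row, and their unique molecular identifiers (UMIs, tags that mark single captured transcripts) were described over cell classes gated by canonical markers. The cells came from collecting lymphatic vessels and tissue around them, taken from 4 male and 4 female C57BL/6J mice of 12 to 14 weeks. For each mouse, vessels of 4 regions (superficial cervical, mesenteric, inguinal axillary and popliteal) went into the same suspension, and neither a treatment nor a genetic alteration is named in the labels. The 4 mice of each sex were carried as 1 gene expression library with a library of cell-tagging oligonucleotides beside it. The deposited barcodes end in a suffix from 1 to 8 that the labels tie to neither a mouse nor a sex. The matrix was therefore handled as 1 pooled sample and the suffixes as 8 unlabelled samples, so no test between groups was run.

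PIEZO proteins form trimeric channels that open when the membrane is stretched or sheared and let cations, calcium among them, into the cell. PIEZO1 is known for sensing blood and lymph flow in endothelium and for its part in lymphatic valves, and loss of human PIEZO1 is a cause of lymphatic dysplasia. PIEZO2 is best known as the touch and body-position channel of sensory neurons and Merkel cells. Initial lymphatic vessels are the blind-ended capillaries that take up fluid, marked by the hyaluronan receptor Lyve1 and the chemokine Ccl21a. Collecting vessels have valves and muscle and carry the fluid onward.

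In GRCm38, the build called mm10 in the submitters' processing notes, the protein-coding gene Piezo1 (ENSMUSG00000014444) covers chromosome 8 from 122481698 to 122551329 on the minus strand. Its last 2441 bases overlap Ctu2, a gene of the plus strand, and no source used here states whether counting used strand, so reads of the overlap cannot be told apart. The protein-coding gene Piezo2 (ENSMUSG00000041482), also on the minus strand, covers chromosome 18 from 63010213 to 63387183.

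After cell filters and doublet removal, 22860 of 24046 barcodes remained, and the suffixes held 2375 to 3315 barcodes and 23828933 to 32467001 UMIs each before filtering. No cell barcode recurred among suffixes 1 to 4 or among suffixes 5 to 8 (12 pairs), while 44 recurred between these sets (16 pairs). Gates placed 18657 cells in 17 classes, 14 of which held at least 50 cells, and left 3611 cells unassigned and 592 in several gates at once. Lymphatic endothelial cells needed a UMI of Prox1, of Flt4 or Mmrn1, and of Cdh5 or Pecam1. The 505 cells of this class were split into 63 initial cells with both Lyve1 and Ccl21a, 404 collecting cells with neither, 29 with Lyve1 only and 9 with Ccl21a only. Of the check genes outside the gate, Reln, a lymphatic capillary gene, differed most, with a UMI in 100% of initial and 17.1% of collecting cells. Nrp2 (100% and 80.7%), Tie1 (85.7% and 70.5%) and Pdpn (69.8% and 25.7%) were also found more often in initial cells. Pdpn had a UMI in 31.3% of cells outside the lymphatic class. Sema3d was found in 93.7% of initial and 96.5% of collecting cells. Schwann cells carried Gfra3, a receptor gene of the GDNF family outside the gate, in 32.6% of cells, against 0.189% of all other cells.

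Levels are given in CPM, the gene's UMIs per 1000000 gene UMIs summed over a class. Intervals are 95% exact Poisson intervals for levels, Clopper-Pearson intervals for shares and conditional binomial intervals for ratios. They cover counting error only, not the spread between mice. Piezo1 had 12227 UMIs in 28.3% of the cells, and Piezo2 had 7975 UMIs in 7.28%.

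Piezo1 was spread over most classes with its peak in collecting lymphatic endothelium, and Piezo2 was concentrated in a few classes with its peak in initial lymphatic endothelium. Over 15 classes (the lymphatic cells counted as initial and collecting), Piezo1 ran between 8.33 CPM in mast cells and 237 CPM in collecting lymphatic cells. Piezo2 ran between 0 UMIs in natural killer cells and 644 CPM in initial lymphatic cells, with epithelial cells next at 457 CPM. With marker genes counted from 2 UMIs instead of 1, this order turned, at 551 CPM in initial lymphatic and 556 CPM in epithelial cells. Ctu2, which overlaps Piezo1, stood at 19.5 CPM in initial lymphatic, 10.9 CPM in collecting lymphatic, 15.3 CPM in smooth muscle and 12.0 CPM in fibroblast cells, where Piezo1 stood at 130, 237, 39.5 and 18.5 CPM. The part of the overlap in these Piezo1 levels was not tested. In initial lymphatic cells, 0.276% of the cells held 6.61% of the Piezo2 UMIs. Epithelial cells held 27.2%, mesothelial cells 19.7% and fibroblasts 17.5% of them, while collecting lymphatic cells held 0.0627%. For Piezo1, collecting lymphatic cells were 1.77% of the cells and held 11.4% of the UMIs.

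**Figure D1:**
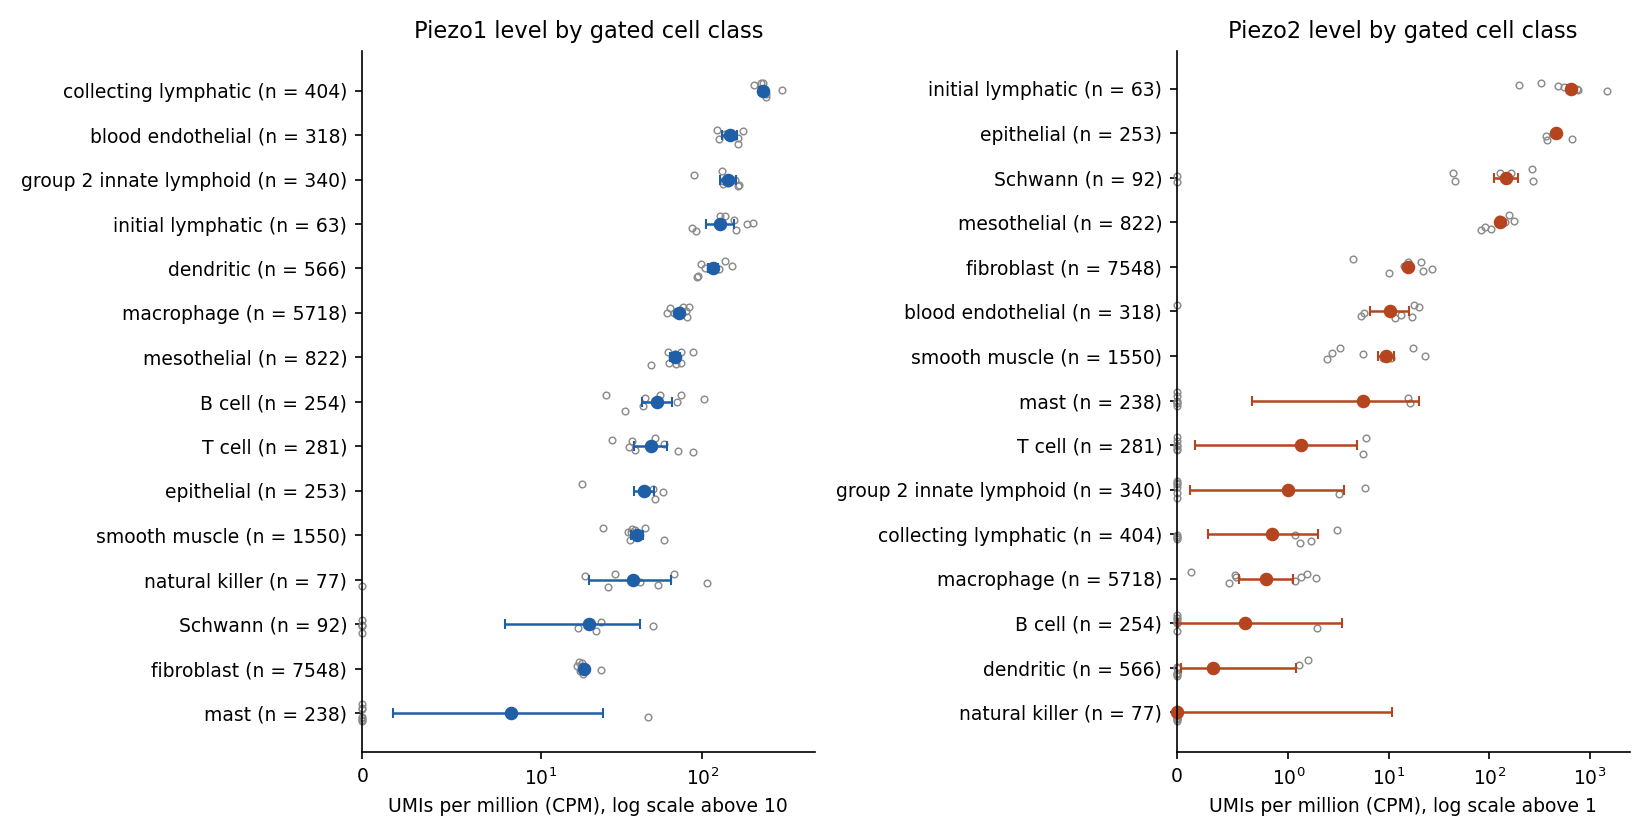
Piezo1 (left) and Piezo2 (right) in CPM for each gated class, ordered by level, with the number of cells in brackets. Filled points are the summed level with its 95% Poisson interval and open points are the barcode suffixes. Collecting lymphatic cells lead the Piezo1 panel at 237 CPM, and initial lymphatic cells lead the Piezo2 panel at 644 CPM.

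Piezo2 was found in nearly all initial lymphatic cells and was almost missing from collecting ones. In initial lymphatic cells the suffixes gave 1473, 769, 480, 753, 559, 325, 199 and 650 CPM in suffixes 1 to 8, from 3 to 24 cells each. In collecting lymphatic cells they gave 0, 3.02, 1.32, 0, 0, 1.16, 1.69 and 0 CPM, from 26 to 83 cells each. All 8 initial values lay above all 8 collecting values, and suffix 1 was the highest and suffix 7 the lowest of the initial values.

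Summed over cells, Piezo2 stood at 644 CPM (590 to 701, 527 UMIs) in initial and 0.854 CPM (0.277 to 1.99, 5 UMIs) in collecting lymphatic cells. The ratio was 754 (321 to 2331), or 9.56 on the log2 scale. It rests on 5 UMIs in collecting cells. With every cell thinned to 1000 UMIs in a single random draw, the log2 ratio was 7.13. The thinned levels were 698 CPM in initial and 4.99 CPM in collecting cells, the second of these from 2 cells. Among 6947 genes at 20 CPM or more in either class, 2.45% were at least 4-fold higher in initial cells and 2.76% at least 4-fold lower. With 3 counts standing in for 0, Piezo2 ranked 3 of 6947 by this ratio, behind Ccl21a and Lyve1, which defined the classes. The level without the single cell that held 69 Piezo2 UMIs was 572 CPM. Cells of suffixes 1 to 4 gave 972 CPM and cells of suffixes 5 to 8 gave 510 CPM.

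Detection cell by cell showed the same contrast. A Piezo2 UMI was found in 56 of 63 initial cells, or 88.9% (78.4 to 95.4), and in 5 of 404 collecting cells, or 1.24% (0.403 to 2.86). B cells, which served as background for free RNA in droplets, had one in 0.394% of 254 cells. Median depths were 8827 UMIs in initial cells, 8514 in collecting cells and 4801.5 in B cells. After each cell was thinned to 1000 UMIs, 31 of 63 initial cells (49.2%) and 2 of 401 collecting cells (0.499%) still held a Piezo2 UMI. The 5 collecting cells with Piezo2 had 1 UMI each, and the initial cells had a median of 6.

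The lymphatic cells were also set out by their Ccl21a UMIs. Lymphatic cells without Ccl21a (433 cells) had 0.759 CPM of Piezo2, and those with 1 to 10 Ccl21a UMIs (9 cells) had 72.1 CPM. Those with 11 to 100 (30 cells) had 636 CPM and those above 100 (33 cells) had 583 CPM. The value of 72.1 CPM is a mixture rather than a level shared by its cells. Its 11 Piezo2 UMIs lay in 2 of the 9 cells, which held 43 and 91 Lyve1 UMIs. Cells with only Lyve1 or only Ccl21a had no Piezo2 UMI. Most of the cells with only Lyve1 held 1 Lyve1 UMI and none held more than 6, at a median depth of 15824 UMIs. For the 29 cells with Lyve1 only this allows a level of up to 4.09 CPM, and for the 9 cells with Ccl21a only up to 15.7 CPM, taking 3 counts as the limit. Markers of mesothelial, Schwann and epithelial cells, which also carried Piezo2, were low in initial cells, and those of fibroblasts were not. The fibroblast list of 6 genes, all detected in both classes, summed to 219 CPM in initial cells and to 229 CPM in collecting cells, and Piezo2 in fibroblasts themselves stood at 15.4 CPM. The mesothelial list of 6 genes summed to 3.67 CPM in initial cells, with Msln, Lrrn4 and Bnc1 at 0, and to 6.83 CPM in collecting cells. The Schwann list of 6 genes summed to 2.44 CPM in initial cells, with Sox10, Cdh19 and Mal among those at 0, and to 4.44 CPM in collecting cells. The epithelial list of 6 genes was higher in initial cells, at 13.4 CPM with Cdh1 at 0, than in collecting cells, at 3.42 CPM. So was the pericyte list of 6 genes, at 67.2 CPM against 10.8 CPM. The part of transcripts from other cells in the Piezo2 level of initial cells was not tested.

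**Figure D2:**
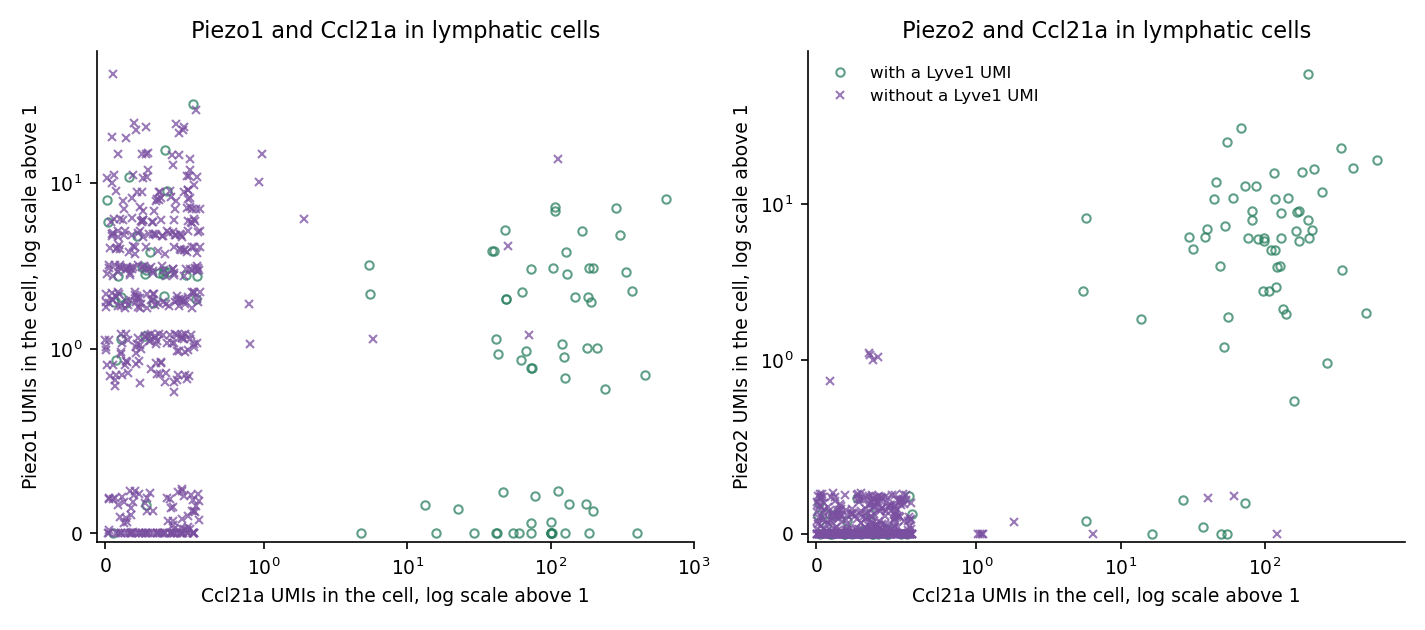
UMIs of Piezo1 (left) and Piezo2 (right) in single lymphatic endothelial cells, plotted over the Ccl21a UMIs of the same cell, with circles for cells with a Lyve1 UMI and crosses for cells without; both axes are logarithmic above 1 and points carry a small random spread. Cells with Piezo2 sit at the right, where Ccl21a and Lyve1 are present, apart from 5 cells with 1 UMI.

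Piezo1 was lower in initial than in collecting lymphatic cells. The suffixes gave 86.9 to 206 CPM with a median of 148 CPM in initial cells, against 211 to 313 CPM with a median of 236 CPM in collecting cells. The highest initial value lay just under the lowest collecting value, and Piezo1 was higher in initial cells in 0 of 8 suffixes. Summed levels were 130 CPM (106 to 157, 106 UMIs) in initial and 237 CPM (225 to 250, 1390 UMIs) in collecting cells, a ratio of 0.545 (0.443 to 0.665). This change of -0.87 on the log2 scale did not reach 4-fold, and 8.80% of the genes had a lower ratio, with a median of 0.05 over all genes. A Piezo1 UMI was found in 60.3% of initial and 74.5% of collecting cells. After thinning, 4 of 63 initial cells (6.35%) and 95 of 401 collecting cells (23.7%) held one. In the 29 cells with Lyve1 only Piezo1 stood at 183 CPM (153 to 217), between both classes. Most of these 29 held 1 Lyve1 UMI, at a median depth of 15824 UMIs, so their label rests on few counts. In the 9 cells with Ccl21a only Piezo1 stood at 283 CPM (213 to 369), an interval that holds the collecting level.

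**Figure D3:**
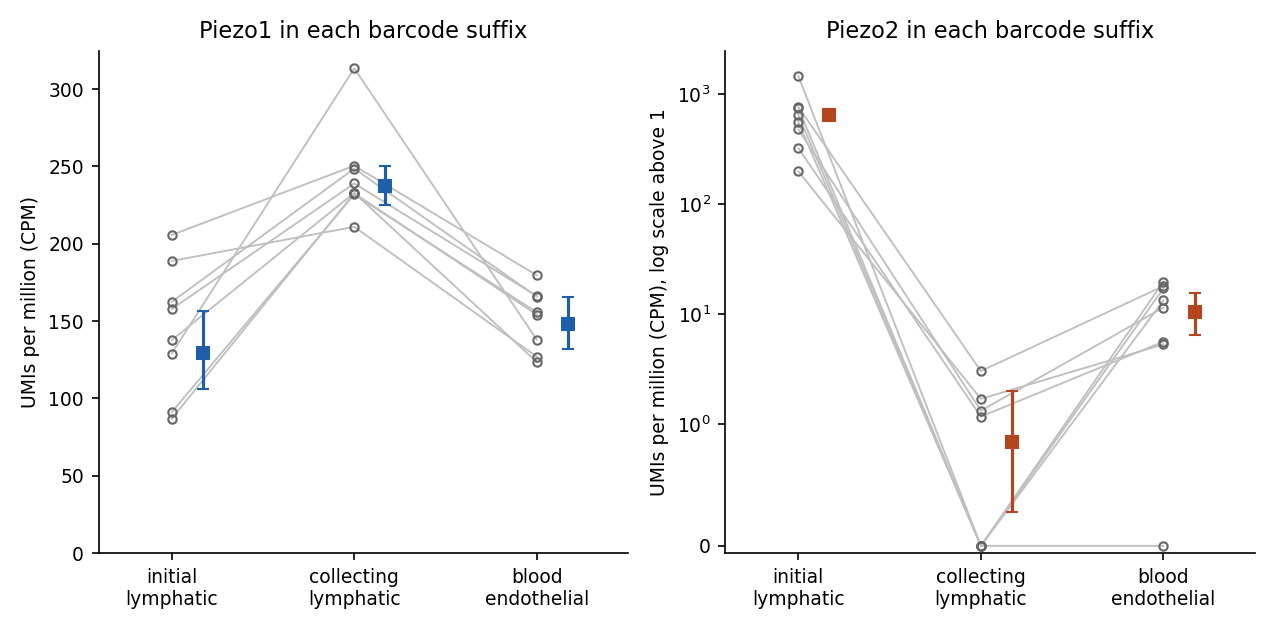
Piezo1 (left, linear axis) and Piezo2 (right, logarithmic above 1) in initial lymphatic, collecting lymphatic and blood endothelial cells. Open circles joined by lines are barcode suffixes and squares are summed levels with 95% Poisson intervals. Piezo1 is highest in collecting cells in each of 8 suffixes, and Piezo2 is highest in initial cells in each of 8.

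Within initial cells both channels were often detected together. Of 63 cells, 33 had both, 23 had Piezo2 only, 5 had Piezo1 only and 2 had neither. Among collecting cells 296 had Piezo1 only and 103 had neither, and the 5 with Piezo2 also had Piezo1. The Piezo1 UMIs of a collecting cell had a median of 2 and a maximum of 46.

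Piezo1 was higher in collecting lymphatic than in blood endothelium. The suffixes gave 211 to 313 CPM in collecting lymphatic cells, and 123 to 180 CPM with a median of 155 CPM in blood endothelial cells. The ranges did not overlap. The ratio of summed levels was 1.60 (1.42 to 1.82), 237 CPM against 148 CPM, below the 4-fold mark that 4.35% of 7148 genes passed upward and 6.52% downward. Median depth was 8514 UMIs in collecting lymphatic and 4941.5 UMIs in blood endothelial cells. With every cell thinned to 1000 UMIs the log2 ratio was 0.96, against 0.68 unthinned. Thinning was a single random draw, and the spread over draws was not measured. Without cells over 2 times their class's median depth the log2 ratio was 0.46, and as a mean of each cell's own CPM it was also below 0.68.

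Within blood endothelium Piezo1 was nearly level across a split by Rgcc and Plvap. Cells with Rgcc, a gene of capillary and arterial cells, and no Plvap stood at 147 CPM, and cells with Plvap, a gene of fenestrated and venous vessels, and no Rgcc at 148 CPM. Their ratio was 0.991 (0.754 to 1.30). Piezo2 was low in both, at 5.75 CPM (4 UMIs) and 2.45 CPM (2 UMIs). Cells with both genes had 30.1 CPM of Piezo2 (17.2 to 48.9, 16 UMIs in 10 of 62 cells), 5.24 times (1.69 to 21.5) the level in cells with Rgcc alone. Cells with both genes were higher in 6 of 8 suffixes.

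Since PIEZO1 is known for lymphatic valves, collecting cells were split by 5 valve genes (Cldn11, Neo1, Foxc2, Itga9, Gja4). The 132 cells with at least 3 of them ranged from 207 to 344 CPM of Piezo1 over suffixes with a median of 264 CPM. The other 272 cells ranged from 170 to 307 CPM with a median of 207 CPM. These ranges overlapped widely. The summed ratio was 1.13 (1.01 to 1.26), 250 CPM against 221 CPM, and valve-gene-high cells were higher in 6 of 8 suffixes. In this contrast 0.0608% of 6578 genes were at least 4-fold higher and 0.243% lower, and 20.1% had a higher ratio than Piezo1. Gata2, a valve transcription factor outside the split, had a UMI in 81.1% of valve-gene-high and 46.3% of other cells, and Nfatc1 in 94.7% and 78.7%. These shares were not brought to equal depth. A deeper cell more often holds a UMI of a given gene, so the shares do not separate valve identity from depth. Valve-gene-high cells were deeper, with a median of 18598 UMIs against 6983, and held less of the leukocyte gene Ptprc, at 2.12 CPM against 40.0 CPM. Ptprc was picked after its values were seen, and the part of either difference in the Piezo1 ratio was not tested.

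Among mural cells, smooth muscle cells had 39.5 CPM of Piezo1 (36.1 to 43.1) and 24.2 to 57.9 CPM over suffixes. Collecting lymphatic cells, at 237 CPM, had 6.01 times (5.43 to 6.67) the level of smooth muscle cells and were higher in 8 of 8 suffixes, a contrast in which 20.8% of 7449 genes were past 4-fold in either direction and 9.75% higher. Smooth muscle cells with 3 or more pericyte genes stood at 38.0 CPM and those with at most 1 at 34.1 CPM, a ratio of 1.11 (0.832 to 1.52). Piezo2 was 9.39 CPM in smooth muscle, in 4.06% of cells and between 2.43 and 23.1 CPM over suffixes. The 37 pericytes, a class under the minimum of 50 cells, had 11 UMIs of Piezo1 and 4 of Piezo2.

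In mesothelial cells, the lining of body cavities, both channels were present. Piezo2 ran from 82.4 to 175 CPM over suffixes with a median of 126 CPM, and Piezo1 from 48.2 to 88.3 CPM with a median of 68.4 CPM. Fibroblasts ran from 4.43 to 26.7 CPM for Piezo2 and from 16.6 to 23.6 CPM for Piezo1. Neither range overlapped that of mesothelial cells. Mesothelial cells were 8.22 times (7.65 to 8.85) fibroblasts for Piezo2, at 127 against 15.4 CPM, and 3.66 times (3.37 to 3.98) for Piezo1, at 67.8 against 18.5 CPM. In this contrast 7.06% of 7333 genes were at least 4-fold higher and 6.63% lower. Of 822 mesothelial cells, 313 had both channels, 222 Piezo2 only, 126 Piezo1 only and 161 neither.

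Schwann cells, the glia of peripheral nerves, had Piezo2 at 148 CPM (110 to 194, 52 UMIs) and Piezo1 at 19.9 CPM (8.00 to 41.0, 7 UMIs). Over suffixes Piezo2 was 0, 45.9, 271, 0, 263, 129, 166 and 43.6 CPM in suffixes 1 to 8, from 3 to 20 cells each, so 2 suffixes had none. A Piezo2 UMI was found in 24 of 92 cells, or 26.1% (17.5 to 36.3), at a median depth of 3451 UMIs. The fibroblast marker list summed to 2486 CPM in these cells, and its part in the Piezo2 level was not tested.

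Epithelial cells, all 253 of which carried suffixes 1 to 4, had Piezo2 at 457 CPM (438 to 476). The suffixes gave 428, 370, 373 and 662 CPM. Splits by 2 genes (Pgr and Krt14), chosen after the values were seen, divided this level. Krt14 itself stood at 31.0 CPM in epithelial cells with a Piezo2 UMI and 1966 CPM in those without. The splits were therefore not independent of Piezo2, and their ranges and ratios only describe them. The 138 cells with Pgr, the progesterone receptor, gave 596, 610, 540 and 896 CPM, and the 115 cells without it gave 0 to 64.8 CPM. The groups did not overlap. Summed levels were 664 CPM with Pgr and 19.6 CPM without, a ratio of 33.9 (23.7 to 50.4), where 3.29% of 7869 genes were at least 4-fold higher, 5.86% lower and 9.15% either. After thinning, 63 of 138 cells with Pgr (45.7%) and 1 of 113 cells without it (0.885%) held a Piezo2 UMI.

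Cells with Krt14, a basal keratin, had 54.6 CPM of Piezo2 against 642 CPM in cells without it, 11.8 times (9.42 to 14.8) lower. The suffixes gave 48.4 to 69.1 CPM with Krt14 and 493.3 to 903.3 CPM without it, and did not overlap. The 82 UMIs with Krt14 lay in 7 of 108 cells, while 116 of 145 cells without it had one, and suffixes 3 and 4 each had 1 Krt14 cell with Piezo2. In that contrast 8.94% of 7887 genes were at least 4-fold higher and 4.65% lower. Piezo1 ran the other way across the Pgr split, at 33.5 CPM with Pgr and 65.3 CPM without, a ratio of 0.513 (0.388 to 0.681). It was higher with Pgr in 0 of 4 suffixes. Across the Krt14 split Piezo1 ran the same way as Piezo2, at 32.7 CPM with Krt14 and 48.9 CPM without, a ratio of 0.668 (0.475 to 0.926), and was higher with Krt14 in 1 of 4 suffixes. A ratio of initial lymphatic over Pgr-positive epithelial cells was 0.969 (0.879 to 1.07) for Piezo2 and 3.86 (2.93 to 5.10) for Piezo1. Initial cells of all 8 suffixes entered these ratios, while the epithelial cells came from suffixes 1 to 4, so the sets were unlike. In suffixes 1 to 4 alone, initial cells stood at 972 CPM of Piezo2 and 148 CPM of Piezo1. The Piezo2 level in initial lymphatic cells was the higher in 2 of 4 shared suffixes.

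Piezo2 of fibroblasts was uneven as well. In a split chosen after the values were seen, the 540 cells with the collagen gene Col8a1 ranged from 19.4 to 144 CPM over suffixes with a median of 93.8 CPM. The 7008 cells without it ranged from 2.64 to 17.1 CPM with a median of 9.21 CPM. The lowest value with Col8a1 lay above the highest without. Col8a1 itself stood at 217 CPM in fibroblasts with a Piezo2 UMI and 17.3 CPM in those without. The split was therefore not independent of Piezo2, and its ranges and ratio only describe it. The ratio was 9.96 (8.95 to 11.1), where 0.418% of 6454 genes were at least 4-fold higher and 0.341% lower, and the ratio of Piezo1 was 1.46 (1.26 to 1.68). Adventitial cells with Pi16 and Dpp4 had 1.74 times (1.48 to 2.06) the Piezo2 of cells with neither, at 14.0 against 8.02 CPM, and were higher in 7 of 8 suffixes.

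**Figure D4:**
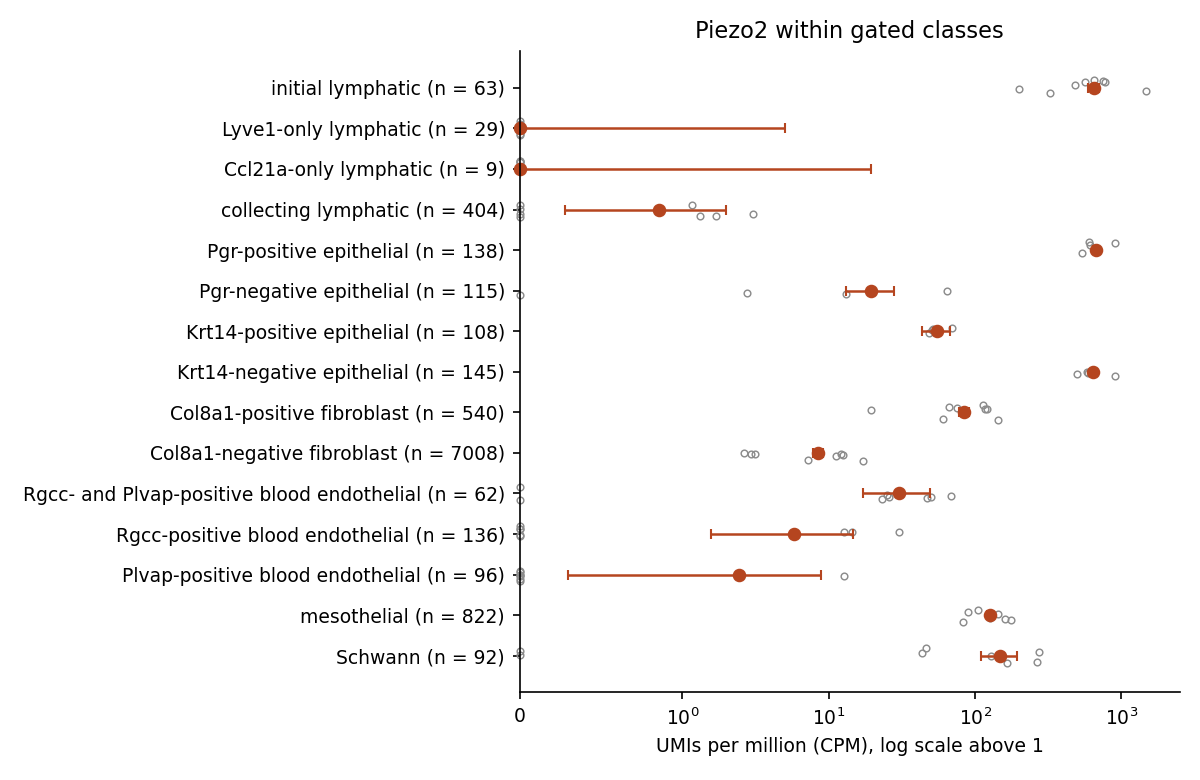
Piezo2 in CPM (logarithmic above 1) in the parts of the lymphatic, epithelial, fibroblast and blood endothelial classes, with mesothelial and Schwann cells beside; filled points are summed levels with 95% Poisson intervals and open points are barcode suffixes. Initial lymphatic cells stand at 644 CPM over all 8 suffixes. Pgr-positive epithelial cells stand at 664 CPM and Krt14-negative epithelial cells at 642 CPM, both from suffixes 1 to 4 only. In those suffixes the summed level of initial lymphatic cells was 972 CPM (not drawn). The remaining parts of the lymphatic and epithelial classes lie below these levels.

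Most immune classes carried Piezo1, and in those with at least 50 cells Piezo2 was at most 5.55 CPM, in mast cells. Piezo1 was 145 CPM (129 to 162) in group 2 innate lymphoid cells and 116 CPM (108 to 125) in dendritic cells. It was 71.4 CPM (68.9 to 73.9) in macrophages, 52.6 in B cells, 48.2 in T cells, 37.5 in natural killer cells and 8.33 in mast cells. Dendritic cells ranged from 93.1 to 154 CPM over suffixes and macrophages from 60.5 to 82.6 CPM, without overlap. Their ratio was 1.63 (1.50 to 1.77), in a contrast where 5.57% of 6694 genes were at least 4-fold higher and 9.76% lower.

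Splits of these classes were chosen after the values were seen. Dendritic cells with Xcr1 or Clec9a, markers of the type 1 lineage, had 101 CPM of Piezo1 against 131 CPM in those with Cd209a, and were higher in 0 of 8 suffixes. Macrophages with Lyve1 had 69.2 CPM against 81.3 CPM in those without, a ratio of 0.851 (0.780 to 0.930). Piezo2 had 35 UMIs in 5718 macrophages, 2 each in T cells, dendritic cells, mast cells and group 2 innate lymphoid cells, 1 in B cells and 0 in 77 natural killer cells. The last allows up to 8.65 CPM. Monocytes (39 cells) and neutrophils (19 cells) had no Piezo2 UMI, and 18 and 0 UMIs of Piezo1. For neutrophils 0 UMIs allow up to 73.6 CPM of either channel, so a low level was not detectable at this depth.

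In the order of Piezo1 levels, 3 of 14 neighbouring pairs had a ratio whose interval excluded 1, and 2 had suffix ranges apart. These 2 were collecting lymphatic over blood endothelial cells, and dendritic cells over macrophages. For Piezo2 the counts were also 3 and 2. The pairs apart were epithelial over Schwann cells at 3.09 (2.35 to 4.15) and mesothelial cells over fibroblasts. Schwann and mesothelial cells, at a ratio of 1.16 (0.864 to 1.53), could not be ordered by their counts, and from fibroblasts downward no neighbouring pair could. Initial lymphatic over epithelial cells was 1.41 (1.28 to 1.55), with suffix ranges that overlapped. That ratio set initial cells of 8 suffixes against epithelial cells of suffixes 1 to 4, in which initial cells stood at 972 CPM.

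Cells that passed several gates, which were left out of every class, held 22.6% of all Piezo2 UMIs in 2.59% of the cells. Of their 1806 Piezo2 UMIs, 1304 lay in 36 cells that passed the epithelial gate. When such cells were kept in every class they fitted, a setting added after the data were seen, Piezo2 stood at 370 CPM in Schwann cells and 41.7 CPM in blood endothelial cells. In initial lymphatic cells it then stood at 520 CPM and in epithelial cells at 516 CPM. Unassigned cells held 3.24% of the Piezo2 UMIs and 13.2% of the Piezo1 UMIs.

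The genes whose class pattern was most like that of each channel were found by the Pearson correlation of log2(CPM + 10) over the 15 classes, among 11559 genes at 20 CPM or more in some class. All points come from the same pooled matrix, so these values are descriptive. For Piezo2 they were Ephb1, an ephrin receptor (0.92), the transcription factor Npas3 (0.91), the endocytic adaptor Pacsin3 (0.87), the placental growth factor gene Pgf (0.86) and the guanylate kinase Guk1 (0.86). Ephb1 had 44.0 CPM in initial lymphatic and 2.05 CPM in collecting lymphatic cells, and 39.5 CPM in epithelial cells. For Piezo1 they were Fam118b (0.82), the centromere gene Cenpt (0.81), the G protein subunit Gnai2 (0.81), Tnfrsf11a, the receptor RANK (0.80), and the cyclic AMP phosphodiesterase Pde4b (0.76). Tnfrsf11a had 74.5 CPM in initial and 242 CPM in collecting lymphatic cells, and 286 CPM in blood endothelial cells. With rank correlation 1 of these 10 genes was kept.

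Other genes were also far apart between the lymphatic classes. With 3 counts standing in for 0, the 5 largest folds toward initial cells, gate genes and Piezo2 aside, were Gm17167 at 343 (58.7 to 13839), the adaptor gene Apba2 at least 341-fold, Pld5 at 200.3 (33.1 to 8189), the sodium channel gene Scn3a at 194 (96.7 to 455) and Brinp1 at 193 (31.8 to 7907). Apba2 had 143 UMIs in initial and 0 in collecting cells, so its fold has no upper limit. The intervals of Gm17167, Apba2, Pld5 and Brinp1 reach past the Piezo2 ratio of 754. That of Scn3a ends below 754 but overlaps the Piezo2 interval of 321 to 2331. Their folds were not compared with that of Piezo2 directly, so no order against Piezo2 is given. The 5 largest toward collecting cells were Plscr1, the E-selectin gene Sele, Ackr4, Strip2 and Egfem1. Ackr4, a scavenging chemokine receptor, had 2.44 CPM in initial and 325 CPM in collecting cells.

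Of 16 other channel genes linked to the sensing of force or cell volume, 7 reached 20 CPM in either lymphatic class. Of these 7, 0 were past 4-fold in either direction, where 5.21% of the 6947 genes were. Their median log2 ratio of initial over collecting was 0.60, with 7 of 7 above 0, against a median of 0.05 over all genes. The share of all genes above 0 was not counted. Ratio intervals included 1 for Pkd2 (0.797 to 1.69), Tmem63a (0.935 to 2.38), Tmem63b (0.625 to 1.80) and Tmem87a (0.637 to 1.57). They excluded 1 for Pkd1 (1.16 to 2.24), Lrrc8a and Trpc1. Lrrc8a, the volume-regulated anion channel subunit, had 116 CPM in initial and 71.9 CPM in collecting cells (ratio 1.61, 1.28 to 2.02). Trpc1, a cation channel, had 24.4 and 10.2 CPM in initial and collecting cells (2.38, 1.36 to 4.01). Trpv4, the channel named in the study's title, was below 20 CPM in both, at 13.4 CPM in initial and 17.9 CPM in collecting cells (0.749, 0.363 to 1.40).

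Of 13 genes known as partners or regulators of PIEZO channels, 8 reached 20 CPM and 0 were past 4-fold, where 5.21% of all genes were. The median log2 ratio was -0.18, against 0.05 over all genes. Mdfic, an auxiliary subunit of PIEZO channels, had 243 CPM in initial and 400.1 CPM in collecting cells (0.608, 0.523 to 0.703). It was 27.2 CPM in smooth muscle and 415 CPM in macrophages. Stoml3, a modulator known from sensory neurons, had 0 UMIs in both lymphatic classes. Nedd4l, a ubiquitin ligase, had 91.6 CPM in initial and 301 CPM in collecting cells (0.304, 0.238 to 0.383).

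Of 17 flow- and stretch-responsive endothelial genes, all at 20 CPM or more in either class, 2 were at least 4-fold higher in initial cells and 0 lower, where 2.45% of all genes were higher and 2.76% lower. The median log2 ratio was 0.10, against 0.05 over all genes. Angpt2 was among those higher, an antagonist or agonist of the receptor Tie2 by context, with 473 CPM in initial and 26.0 CPM in collecting cells (18.2, 15.1 to 22.1). Nos3, the endothelial nitric oxide synthase, had 69.6 CPM in initial and 238 CPM in collecting cells (0.293, 0.221 to 0.382). The flow-induced factor Klf2 had 4931 CPM in initial and 6156 CPM in collecting cells. Foxc2, Itga9 and Gja4 in this list, and Pecam1 and Cdh5 among the partners, also served in gates.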

How the data were processed

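Suspensions of cells were barcoded with sample tags and sequenced as gene expression and tag libraries, per the labels' protocols. Cell Ranger 7.1.0, Seurat 4.3.0.1 and mm10 are named, with no role, in the submitters' processing notes. The authors deposited 1 matrix of raw UMI counts for 24046 barcodes, 32285 genes and 12 tags, with 232753017 gene UMIs in all. The median barcode had 8684.5 UMIs and 2866 genes. The tag counts were not used.

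Cells needed 500 UMIs, 300 genes and under 15% mitochondrial UMIs, which removed 380 barcodes. Scrublet in scanpy 1.11.5, run on suffixes 1 to 4 and 5 to 8 apart, removed 806 more (3.41%). It called 146 of 300 doublets spiked in (48.7%), so some remain. Gates were set from marker counts without Piezo1 and Piezo2, and cells that passed gates of several classes were left out. The sums, ratios and fold calls were tested on simulated counts. Ratios against 0 UMIs used 3 counts summed over the class. Intervals are at 95%.

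No test was run, since no label separates replicates. The members, lists and rule for named genes were chosen with earlier results of these data known. Named genes were the 5 most like each channel, the 5 largest folds each way between lymphatic classes, and list members at 10 CPM or more in initial, collecting, smooth muscle, mesothelial or Schwann cells, with examples given in the text. Values of some list genes are not reported here.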

Additional observations from a re-analysis of the deposited data

Results flagged for a closer look

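Suffix values were checked in 51 sets, 1 per gene and class with at least 10 cells in each suffix that held the class. In 8 of them an end value stood far from the others. The cutoff gives about 1 in 20 for independent sets of normally distributed values. Some sets here share cells and some hold few UMIs, so 1 in 20 is not their chance rate. Piezo1 in collecting lymphatic cells was 313 CPM in suffix 1, above the other 7. Piezo1 in group 2 innate lymphoid cells was 88.6 CPM in suffix 5, below the other 7. Suffix 2 was high for Piezo1 in fibroblasts at 23.6 CPM, in Col8a1-positive fibroblasts at 47.1 CPM and in Col8a1-negative fibroblasts at 22.8 CPM, sets that share cells. Krt14-positive epithelial cells of suffix 1 had 69.1 CPM of Piezo2. The Piezo2 values of 1.94 CPM in B cells of suffix 2 and 4.75 CPM in Cd209a-positive dendritic cells of suffix 3 are 1 UMI each.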

How the results depend on the processing

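Reversal was checked for the log2 ratios of both channels in initial over collecting cells, and of Piezo1 in collecting over blood endothelial cells and the valve split. None of these changed sign under the alternatives run. The order of initial lymphatic and epithelial cells for Piezo2 did turn with markers counted from 2 UMIs, as given above. Thinning cells to 1000 UMIs was done as a single random draw, so draw noise enters its values. It moved the log2 ratio of Piezo2, initial over collecting, to 7.13 from 9.56 and that of Piezo1 to -1.84 from -0.87. The thinned Piezo1 level of initial cells came from 4 of 63 cells. Piezo1 in collecting over blood endothelial cells went to 0.96 from 0.68, and the share of initial cells with Piezo2 to 49.2%. The ratio of collecting over blood endothelial cells was 0.46 without cells over 2 times their class's median UMIs and 0.48 as a mean of each cell's CPM. With initial cells defined by Lyve1 or Ccl21a, the Piezo1 ratio was -0.49, the share 55.4% and the genes past 4-fold 74, against 362. By Ccl21a alone these were -0.55, 77.8% and 237, and by Lyve1 alone the share was 60.9% and the genes 88. Most of the Lyve1-only cells that the first and last of these definitions added held 1 Lyve1 UMI. A fold of 2 gave 1046 genes, a fold of 8 gave 167 and a minimum of 50 CPM gave 232. Of 10 genes most like the channels, Spearman's rho kept 1 and a pseudocount of 1 CPM kept 6.

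Leaving out 1 suffix at a time gave 9.20 to 10.09 for Piezo2 and -1.005 to -0.618 for Piezo1 in initial over collecting cells, 0.64 to 0.71 for collecting over blood endothelial cells, 0.12 to 0.25 for the valve split, 82.1% to 91.4% for the share, and 356 to 387 genes. The valve split ran from 0.12 to 0.30 over its 20 alternatives. Of 480 class levels, 66 moved beyond their interval. Mast cell Piezo1 was 0 without suffix 5 and B cell Piezo2 was 0 without suffix 2. No paired test was run, as no test was run at all. Classes were set beside each other within suffixes as values only. Low counts limit Piezo2 in collecting, immune and Schwann cells and Piezo1 in Schwann and mast cells, and the depth of a class sets its share of cells with a UMI.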
